A study of Mus musculus with 8 samples.

Results

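The insulin-like growth factor 1 (IGF1) axis was followed through 10 genes chosen by name. They were the hormone gene Igf1, the carrier gene Igfals (acid-labile subunit), the growth hormone receptor gene Ghr and the IGF binding protein genes Igfbp1 to Igfbp7. They are 10 of the 52195 genes in the deposited expression table. All 10 were among the 16328 genes kept for testing, and each reached the minimum level in both libraries of at least 2 tissues. The table covers 8 bulk RNA-seq libraries of polyadenylated RNA, with 2 libraries each of kidney, lung, liver and small intestine. The mice were male C57BL/6J (strain label C57BL/6), 6 to 10 weeks old, untreated and without genetic change. The paired libraries of a tissue came from separate mice, and every one of these tissues was taken from each mouse, but which libraries share a mouse is not stated in the sources used here. Every value below is FPKM, the reads of a gene scaled to its exon length in kilobases and to the size of the library. The SEs and intervals rest on a spread pooled over all 8 libraries, with 2 mice per tissue. They are not the spread of the tissue named, while the SDs cover 2 libraries each.

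The pituitary releases growth hormone, which binds its receptor on hepatocytes and, through the kinase JAK2 and the factor STAT5B, raises transcription of Igf1 and Igfals. In blood most IGF1 travels in a complex with IGFBP3 or IGFBP5 and the acid-labile subunit, while the other binding proteins carry it without that subunit. The receptor IGF1R then passes the signal on in target tissues, where locally made binding proteins hold or release the hormone.

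The tissues carried the markers of their names. Summed over a short list per cell type, hepatocyte markers reached 48120 to 53080 FPKM in liver and at most 521 elsewhere, and alveolar type 2 markers reached 13180 to 15180 FPKM in lung and at most 18.1 elsewhere. Proximal tubule markers lay at 924 to 1350 FPKM in kidney against at most 6.08 elsewhere, and enterocyte markers at 5710 to 7477 FPKM in small intestine against at most 56.9 elsewhere. Pancreatic acinar markers summed to 1698 and 759 FPKM in the small intestine libraries against at most 3.60 elsewhere, and cardiac muscle markers to 107 and 115 FPKM in lung against at most 1.40 elsewhere. Their part in the values of those libraries was not tested. Depth behind the FPKM values, recovered from their steps, ran from 9164183 to 21444657 reads per library. The middle of all genes also lay at different levels between tissues, and the cause was not tested. The log2 difference between a tissue and the other 3 had a median over all tested genes of -0.72 for liver, -0.34 for kidney, -0.01 for small intestine and 0.82 for lung. For that reason each comparison was repeated after median-of-ratios scaling, which brought these medians to -0.13, -0.12, -0.06 and -0.02.

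Among the binding protein genes, 4 lie in 2 tail-to-tail pairs. Igfbp1 (chromosome 11, 7197782 to 7202546, plus strand) and Igfbp3 (7206086 to 7213923, minus strand) are 3539 bases apart in GRCm38, and Igfbp2 (chromosome 1, 72824503 to 72852474, plus strand) and Igfbp5 (72857932 to 72874884, minus strand) are 5457 bases apart. No protein-coding gene lies between the members of either pair, and all of Igfbp1 to Igfbp6 have 4 coding exons. The sequences upstream of these 4 genes are shown because the neighbours differ in their tissue pattern, as described below. They come from RefSeq (GRCm38.p6), end at the base before the first annotated exon or start site, and read 5′ to 3′ toward the gene, with matches to 6 short motifs in capitals. For Igfbp1 and Igfbp5 that left 245 and 231 of the 250 bases before the RefSeq start site, and the base composition below is of all 250.
Igfbp1, chr11:7197537-7197781, plus strand: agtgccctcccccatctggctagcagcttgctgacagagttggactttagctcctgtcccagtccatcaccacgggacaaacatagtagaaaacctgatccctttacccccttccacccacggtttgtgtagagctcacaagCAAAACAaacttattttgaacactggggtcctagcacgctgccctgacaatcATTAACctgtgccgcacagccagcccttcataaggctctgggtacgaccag
Igfbp3, chr11:7213924-7214173, minus strand: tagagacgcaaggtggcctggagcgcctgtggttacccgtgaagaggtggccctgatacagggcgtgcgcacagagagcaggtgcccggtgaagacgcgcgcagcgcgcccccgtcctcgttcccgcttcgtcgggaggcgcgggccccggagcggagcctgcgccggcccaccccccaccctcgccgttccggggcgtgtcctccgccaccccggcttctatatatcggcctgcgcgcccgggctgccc
Igfbp2, chr1:72824230-72824479, plus strand: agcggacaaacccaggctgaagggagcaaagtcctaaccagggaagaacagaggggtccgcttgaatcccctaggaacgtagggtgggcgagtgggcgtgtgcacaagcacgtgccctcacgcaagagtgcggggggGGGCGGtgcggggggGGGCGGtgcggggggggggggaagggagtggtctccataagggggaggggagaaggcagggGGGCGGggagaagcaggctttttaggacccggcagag
Igfbp5, chr1:72874885-72875115, minus strand: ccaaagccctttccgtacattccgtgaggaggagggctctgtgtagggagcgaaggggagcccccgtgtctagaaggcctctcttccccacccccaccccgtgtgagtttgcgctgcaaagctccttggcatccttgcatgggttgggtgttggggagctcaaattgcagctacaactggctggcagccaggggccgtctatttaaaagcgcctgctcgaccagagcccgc
The motifs searched on both strands were TATAAA (the TATA box core), TTCNNNGAA (the STAT5 palindrome), GTTAAT (a half-site of the hepatocyte factor HNF1), TGTTTAC (the forkhead core), TGTTTTG (the core of the insulin response element) and GGGCGG (the GC box). Of 32817 mouse windows of 250 bases before a start site, 12.4%, 7.01%, 6.44%, 3.16%, 5.56% and 32.7% held them in that order. No matches overlapped in the windows of the 10 genes. The Igfbp1 window held GTTAAT on the reverse strand beginning 56 bases before the start site and TGTTTTG on the reverse strand beginning 108 bases before it. The Igfbp3 window held none of the 6. It was 73.2% G or C with 32 CpG dinucleotides, against 53.2% and 5 in the Igfbp1 window and medians of 52.4% and 6 over all windows. In the other pair, the Igfbp2 window shown had 3 GC boxes, 67.2% G or C and 14 CpG. A window at another RefSeq start site of Igfbp2 had no match, 56.4% G or C and 11 CpG, while the Igfbp5 window had no match, 58.8% G or C and 10 CpG. A match is a run of letters and was not tested as a binding site.

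As deposited, each of the 10 genes was called higher in 1 or 2 of the tissues, and the plot of levels by library shows their values. The share of all genes called higher in any tissue was not counted, so this is a description only. In liver, 6 were higher than the mean of the other tissues (Igf1, Igfals, Ghr, Igfbp1, Igfbp2 and Igfbp4) and the remaining 4 (Igfbp3, Igfbp5, Igfbp6 and Igfbp7) were lower, with a median log2 difference of 2.02. In kidney, Ghr, Igfbp3, Igfbp4, Igfbp5 and Igfbp7 were higher and Igf1, Igfbp2 and Igfbp6 lower, with a median of 0.89. In lung, Igfbp2, Igfbp3, Igfbp5, Igfbp6 and Igfbp7 were higher and Igfals and Igfbp1 lower, with a median of 0.69. In small intestine none was higher and 8 were lower, with Igfbp3 and Igfbp6 not called, and the median was -2.42. A gene was called where limma on log2(FPKM + 1) gave a Benjamini-Hochberg adjusted p below 0.05 over all genes tested and a log2 difference above 1 in size.

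**Figure D1:**
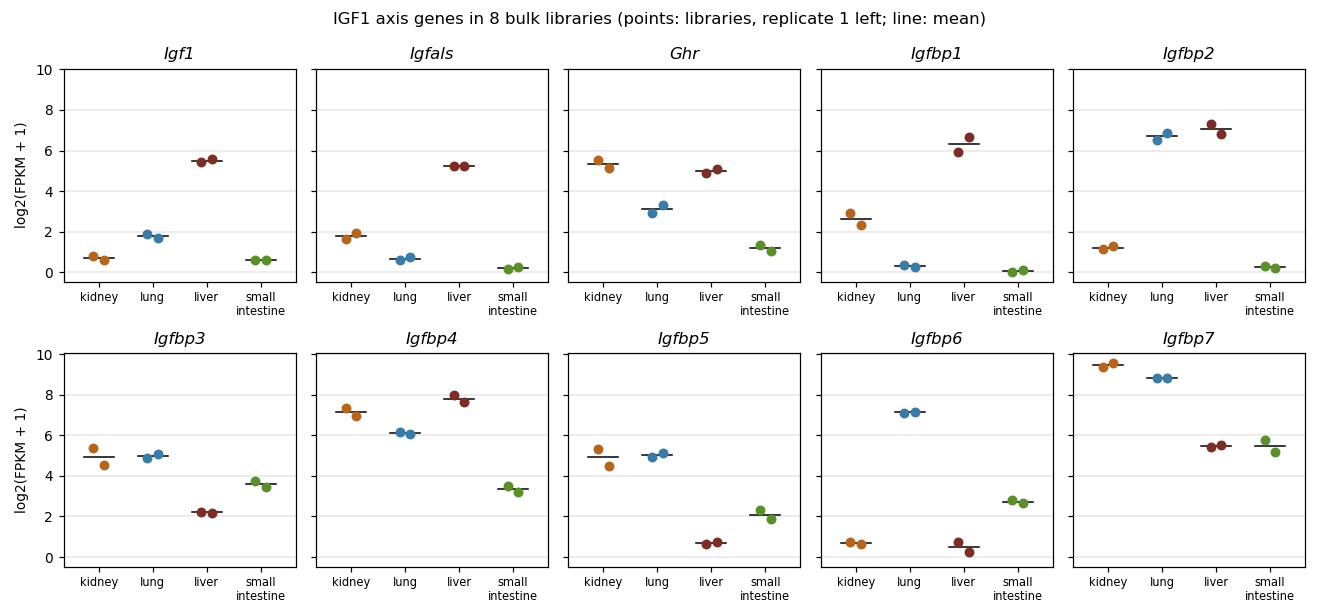
Each panel plots log2(FPKM + 1) of one gene (vertical axis) by tissue (horizontal axis), with a point for each of the 8 libraries and a line at the mean of the 2. Igf1, Igfals and Igfbp1 stand highest in both liver libraries, Igfbp6 in both lung libraries and Igfbp7 in both kidney libraries, and no gene is highest in small intestine.

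Over all 16328 genes the same rule called 6.56% higher and 32.7% lower for liver, 13.7% higher and 11.3% lower for small intestine, 8.65% higher and 16.1% lower for kidney, and 40.7% higher and 8.26% lower for lung. The 6 members higher in liver and the 8 lower in small intestine are thus larger shares of the 10 than these backgrounds, whereas 5 of 10 higher in lung is near its background. Since the members were chosen with earlier results of these data known, these shares are descriptions and not a test. Under median-of-ratios scaling the counts in kidney, liver and small intestine did not move, but the lung count became 3 higher and 5 lower. With that scaling the shares over all genes were 14.7% higher and 16.0% lower for lung, 12.3% and 13.9% for liver, 13.0% and 11.7% for small intestine, and 11.5% and 12.1% for kidney. There Igfbp3 (0.29) and Igfbp7 (0.87) dropped below the size required, and Igf1 (-1.33), Ghr (-1.79) and Igfbp4 (-1.17) were called lower. Among all called genes the share that was higher in lung went from 83.1% to 47.9% with that scaling, in liver from 16.7% to 46.9% and in kidney from 35% to 48.7%. Leaving out kidney replicate 1 took the call from Igfbp3 in kidney (a log2 difference of 0.95 without that library) and so left 7 members called there in place of 8.

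**Figure D2:**
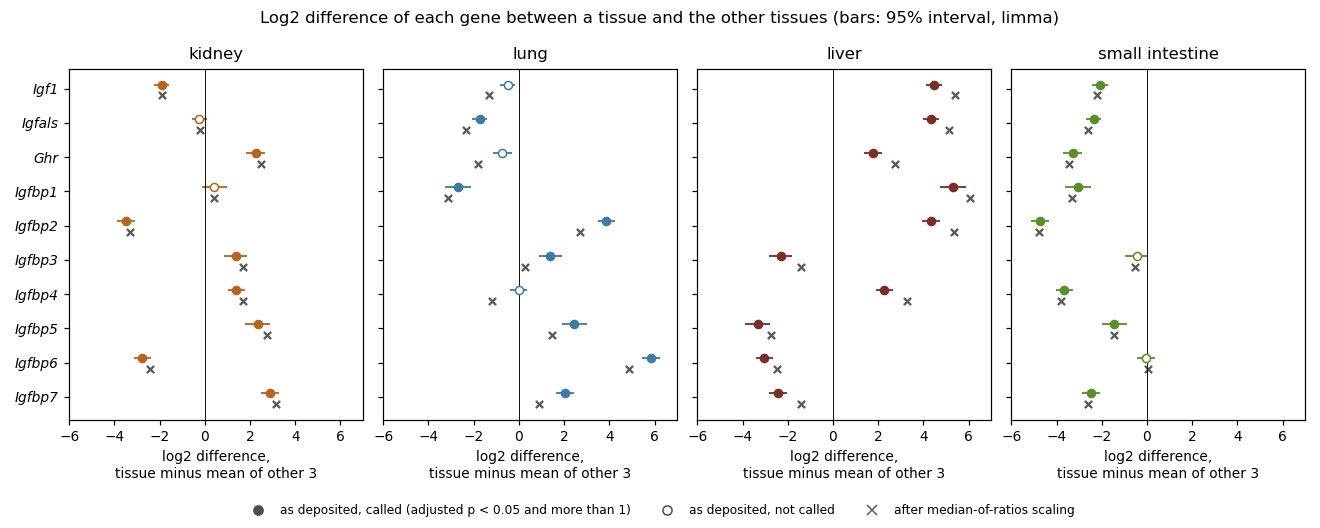
Each panel plots, for one tissue, the log2 difference of each gene from the mean of the other 3 tissues (horizontal axis) with the limma 95% interval as a bar, filled where called, and the value after median-of-ratios scaling as a cross. The crosses in lung lie to the left of the points, so that Igfbp3 and Igfbp7 lose the call there and Igf1, Ghr and Igfbp4 become lower, while every cross in liver lies to the right of its point.

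Igf1, which encodes the hormone, was read mainly in liver. Its FPKM was 42.1 and 46.4 in the liver libraries, 2.63 and 2.19 in lung, 0.763 and 0.508 in kidney, and 0.496 and 0.508 in small intestine. Both liver libraries were above all others, both lung libraries came next, and kidney and small intestine overlapped. Liver exceeded the mean of the other tissues by 4.48 on the log2 scale (SE 0.14, adjusted p = 2.9e-07 by limma) and lung, the next tissue, by 3.73 (SE 0.18, an 18.4-fold ratio of mean FPKM). The exact two-sided permutation test of liver against the other 6 libraries gave p = 0.0357, the smallest value that 28 ways of choosing 2 of 8 libraries allow, which 10 of the 40 such tests of a member in a tissue gave, with no adjustment for their number. Lung exceeded kidney by 1.06 (adjusted p = 0.0011 by limma), a call lost without kidney replicate 2 (0.95), without lung replicate 1 (0.97) and under each of the 3 other scalings (median-of-ratios 0.42, quantile 0.13, and equal sums without mitochondrial genes 0.70). The log2 difference of kidney and small intestine, 0.12 (95% interval -0.29 to 0.53), was within the error. In bulk tissue fewer cells of a type and less RNA per cell cannot be told apart, for this gene and for all that follow.

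Igfals encodes the acid-labile subunit, which keeps the large IGF complex in the blood. Its FPKM was 36.9 and 36.2 in liver, 2.14 and 2.85 in kidney, 0.534 and 0.648 in lung, and 0.101 and 0.209 in small intestine, the last from 3 and 8 reads. The tissues did not overlap. Liver stood 4.34 above the mean of the other tissues on the log2 scale (SE 0.15, adjusted p = 3.7e-07 by limma) and 14.6-fold above kidney in mean FPKM. Kidney in turn exceeded lung by 1.13 (adjusted p = 8.6e-04 by limma), or by 0.98 without kidney replicate 2, which is below the size required. Lung and small intestine differed by 0.46 (adjusted p = 0.054 by limma), which was not called. Per length, liver held 0.876 and 0.780 Igfals for each unit of Igf1 FPKM, whereas kidney held 2.81 and 5.61. Igfals was thus above Igf1 in both kidney libraries and below it in all 6 others. FPKM divides by the whole exon length of a gene, which is 9904 bases for Igf1 and 3167 for Igfals, so these ratios rest on those lengths.

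Ghr, the receptor through which growth hormone acts, was highest in kidney and liver. Its FPKM was 45.5 and 34.2 in kidney, 28.9 and 32.4 in liver, 6.46 and 8.84 in lung, and 1.52 and 1.03 in small intestine. No 2 tissues overlapped, yet kidney and liver were not separated beyond their error (log2 difference 0.35, 95% interval -0.15 to 0.86, adjusted p = 0.25 by limma), and median-of-ratios scaling turned the difference to -0.19. Liver exceeded lung by 1.88 and lung exceeded small intestine by 1.92, both called. The ratio of Igf1 to Ghr FPKM was 1.46 and 1.43 in liver but 0.0168 and 0.0149 in kidney. Mean Igf1 FPKM was 69.6 times higher in liver than in kidney, whereas the interval for Ghr between these tissues included 0.

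Igfbp1, a binding protein whose transcription in liver insulin lowers, was high in liver and close to 0 in lung and small intestine. Its FPKM was 59.0 and 102 in liver, 6.64 and 4.09 in kidney, 0.269 and 0.211 in lung (4 reads in each library) and 0 and 0.0579 in small intestine (0 and 1 reads). Liver was highest in both libraries although these differed from each other by a factor of 1.73. Against the mean of the other tissues liver was higher by 5.30 (SE 0.24, adjusted p = 1.8e-06 by limma), and it was 15.0-fold above kidney in mean FPKM. Kidney exceeded lung by 2.33 (adjusted p = 2.6e-04 by limma). Lung and small intestine differed by 0.27 (95% interval -0.42 to 0.96), and no fold is given for a tissue with 1 read in all. The Igfbp1 window shown above is the one with the HNF1 half-site and the insulin response core, and whether either was in use was not measured.

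Igfbp2, a binding protein of liver and other epithelia, was shared by liver and lung. Its FPKM was 156 and 113 in liver, 91.1 and 117 in lung, 1.19 and 1.41 in kidney, and 0.231 and 0.143 in small intestine (4 and 3 reads). The liver and lung libraries overlapped, and both were above every kidney and small intestine library. Liver and lung differed by 0.36 on the log2 scale (95% interval -0.13 to 0.84, adjusted p = 0.15 by limma), while under median-of-ratios scaling liver was called higher by 2.0. Lung stood 80.3-fold above kidney in mean FPKM, a log2 difference of 5.51 (SE 0.21, adjusted p = 9.4e-07 by limma). Kidney and small intestine differed by 0.95 (adjusted p = 0.0068 by limma), just under the size required, and by 1.11 with that scaling. As deposited, the step from lung to kidney was on the log2 scale the largest of the 30 between neighbouring tissues in the order of each gene, while after median-of-ratios scaling it was 4.50, below the step of Igf1 from liver to lung (5.06).

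Igfbp3 carries most circulating IGF1 together with the acid-labile subunit, and it was lowest in the tissue that was highest for both partners. Its FPKM was 40.3 and 22.2 in kidney, 28.4 and 32.6 in lung, 12.4 and 9.82 in small intestine, and 3.73 and 3.50 in liver. Kidney and lung overlapped, and both liver libraries were below all others (log2 difference -2.30, SE 0.22, adjusted p = 7.1e-05 by limma; exact permutation p = 0.0357). The liver value after median-of-ratios scaling was -1.42, also called. The log2 difference of kidney and lung was -0.02 (95% interval -0.65 to 0.61), against 1.04 with that scaling, which was called. Lung exceeded small intestine by 1.38 and small intestine exceeded liver by 1.39, calls that were both lost with that scaling (0.64 and 0.65). In liver Igfbp3 came to 0.101 and 0.0967 of the Igfals FPKM, while in the other tissues the ratio was between 7.81 and 123. Its tail-to-tail neighbour Igfbp1 had the opposite ends: Igfbp1 was highest and Igfbp3 lowest in liver.

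Igfbp4, a binding protein that lowers IGF action and is cut by the protease PAPP-A, was high in most libraries. Its FPKM was 255 and 197 in liver, 160.0 and 124 in kidney, 70.5 and 65.2 in lung, and 10.5 and 8.28 in small intestine. The tissues did not overlap, and both small intestine libraries were lowest (log2 difference -3.65, SE 0.16, adjusted p = 1.7e-06 by limma). Liver exceeded kidney by 0.67 (adjusted p = 0.032 by limma), less than the size required, and by 1.22 with median-of-ratios scaling, which was called. Kidney exceeded lung by 1.04, a call lost without kidney replicate 1 (0.86) or without lung replicate 2 (0.99). Lung was 7.21-fold above small intestine in mean FPKM.

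Igfbp5, which binds matrix and can also form the large complex, followed Igfbp3. Its FPKM was 39.8 and 21.7 in kidney, 29.5 and 33.7 in lung, 4.02 and 2.62 in small intestine, and 0.581 and 0.645 in liver. Kidney and lung overlapped, small intestine was below both and liver was below all. The log2 difference of liver from the other tissues was -3.32 (SE 0.24, adjusted p = 1.8e-05 by limma). Kidney was 9.26-fold above small intestine in mean FPKM, and small intestine exceeded liver by 1.40 on the log2 scale, or by 0.97 with median-of-ratios scaling, which was not called. Lung and kidney differed by 0.10 (95% interval -0.58 to 0.78), and by -0.96 with that scaling. The ratio of Igfbp5 to Igfbp3 FPKM was 0.986 and 0.975 in kidney and 1.04 and 1.04 in lung, but 0.324 and 0.267 in small intestine and 0.156 and 0.185 in liver. Both genes were higher in kidney replicate 1 than in kidney replicate 2 by a factor of 1.8, and their ratio did not move with that difference.

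Igfbp6, a binding protein that prefers IGF2, was highest in lung. Its FPKM was 139 and 144 in lung, 5.96 and 5.32 in small intestine, 0.671 and 0.572 in kidney, and 0.687 and 0.174 in liver, the last 2 from 7 and 2 reads. Lung was higher than the other tissues by 5.85 on the log2 scale (SE 0.17, adjusted p = 3.1e-07 by limma; exact permutation p = 0.0357), and by 4.88 with median-of-ratios scaling. Small intestine was second and exceeded kidney by 2.03 (adjusted p = 1.2e-04 by limma), while kidney and liver overlapped. Its preferred ligand gene Igf2 had 1 read in all 8 libraries together.

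Igfbp7, a low-affinity member of the family found in vessel walls, had the highest FPKM of the 10. It was 659 and 757 in kidney, 459 and 463 in lung, 53.9 and 34.7 in small intestine, and 42.8 and 44.9 in liver. Both kidney libraries were above both lung libraries, and small intestine and liver overlapped. Kidney exceeded lung by 0.61 (95% interval 0.13 to 1.10, adjusted p = 0.028 by limma), under the size required, and by 1.72 with median-of-ratios scaling, which was called. Lung exceeded small intestine by 3.38 (SE 0.21, adjusted p = 6.5e-06 by limma), 10.4-fold in mean FPKM. Of its exon length 7.03% is shared with Polr2b on the other strand, and since the use of strand in counting is not stated, reads there cannot be assigned to either gene.

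Taking the order of tissues gene by gene, 18 of 30 neighbouring pairs were called and 6 of 30 had overlapping libraries. Over all genes tested 20.1% of neighbouring pairs were called, while the share with overlapping libraries was not computed. The overlap count is therefore not read as a trait of the members. The highest tissue was called above the next in 4 members (Igf1, Igfals and Igfbp1 in liver, Igfbp6 in lung), against 34.5% of all genes, a share near theirs. With median-of-ratios scaling it was called in 8 members, against 26.3% of all genes. Both libraries of the highest tissue were above the other 6 in 7 members, against 78.6% of all genes. The order was read from the same values as these tests.

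Liver differed from the other tissues in the make-up of its binding protein transcripts, with Igfbp4, Igfbp2 and Igfbp1 ahead there and Igfbp7 ahead elsewhere. The summed FPKM of Igfbp1 to Igfbp7 was 87.1 and 60.9 in small intestine, 518 and 461 in liver, 817 and 855 in lung, and 907 and 931 in kidney. Small intestine was lowest as deposited and after median-of-ratios scaling. Liver was below lung as deposited and above it after that scaling, with 942 and 741 against 454 and 452. A share within a library does not depend on that scaling. Igfbp7 made up 77.0% ± 6.17 (SD, n = 2) of the sum in kidney, 59.4% ± 3.52 in small intestine, 55.1% ± 1.43 in lung and 9.0% ± 1.04 in liver. In liver Igfbp4 came first with 46.0% ± 4.65, followed by Igfbp2 with 27.3% ± 4.02 and Igfbp1 with 16.8% ± 7.64. Igfbp6 made up 16.9% ± 0.130 in lung, where it followed Igfbp7, and Igfbp3 made up 15.2% ± 1.30 in small intestine. The liver shares of Igfbp1, Igfbp2 and Igfbp4, the lung share of Igfbp6, the small intestine share of Igfbp3 and the kidney share of Igfbp7 were each, in both libraries, above those of the other 6 libraries. The liver share of Igfbp7 was below the other 6 in both libraries. These are descriptions, with the combinations picked after their values were seen. In 6 of the 7 genes both libraries of the tissue with the highest share were above all others, Igfbp5 being the exception. For levels in place of shares, 78.6% of all genes had both libraries of the highest tissue above the other 6. The count is therefore not read as a trait of these genes. The ± values cover 2 libraries each.

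**Figure D3:**
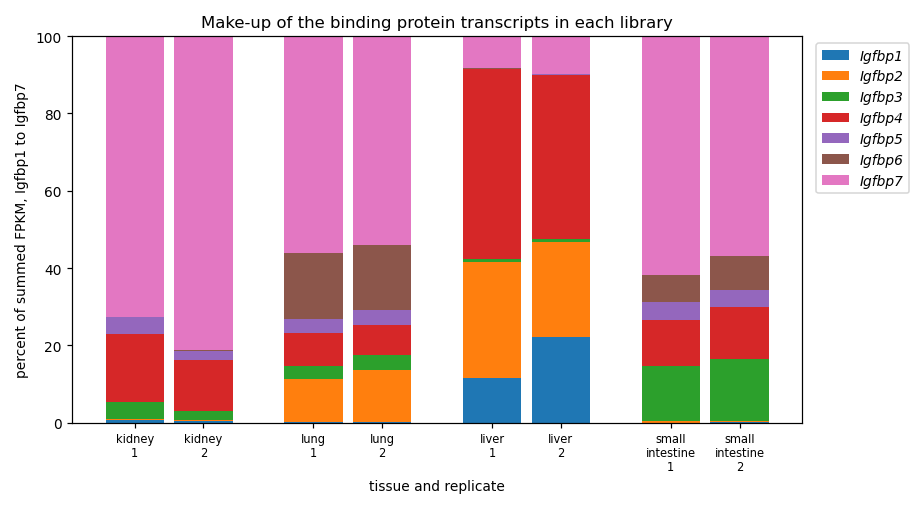
Stacked bars plot the percent of the summed FPKM of Igfbp1 to Igfbp7 (vertical axis) taken by each gene in each of the 8 libraries (horizontal axis). Igfbp7 fills at least 54.1% of every kidney, lung and small intestine bar and at most 9.74% of the liver bars, which are filled by Igfbp4, Igfbp2 and Igfbp1.

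Some members had closely similar patterns over the 8 libraries. On log2(FPKM + 1), Pearson's r was 0.983 for Igfals and Igfbp1, 0.917 for Igf1 and Igfals, and 0.953 for Ghr and Igfbp4. It was 0.983 for Igfbp3 and Igfbp5 and 0.944 for Igfbp5 and Igfbp7. It was negative for Igf1 and Igfbp3 (-0.763) and for the chromosomal neighbours Igfbp1 and Igfbp3 (-0.661), and -0.148 for the neighbours Igfbp2 and Igfbp5. Other pairs lay between, such as Ghr and Igfbp7 (0.398), Ghr and Igfbp2 (0.345), Igfbp4 and Igfbp7 (0.331), Igfbp2 and Igfbp6 (0.328) and Igfbp6 and Igfbp7 (0.327), so the members did not divide cleanly into sets. These are descriptions over 8 points that come from 4 tissues and share their scaling. Among genes with a mean of at least 10 FPKM in the highest tissue of a member, the pattern most like Igf1 was that of the amino acid transporter gene Slc38a4 (r = 0.9986), and most like Igfals was the protease inhibitor gene Serpina1a (0.9966). The closest were Acat3 for Igfbp1 (0.9977), Cyp2f2 for Igfbp2 (0.9922), Agtr1a, the angiotensin II receptor gene, for Igfbp4 (0.9917), and Acad8 for Ghr (0.9934). They were Prps2 for Igfbp3 (0.9929), Wls, which carries Wnt proteins to the cell surface, for Igfbp5 (0.9960), the growth cone gene Gap43 for Igfbp6 (0.9974) and the fatty acid binding protein gene Fabp3 for Igfbp7 (0.9982). The second closest were Hfe2, Pzp, Acsl1, Hc, Retreg2, Cutal, Fbxw11, Agtrap, Gramd2 and Tmem176b for the members in the same order. Counts at r over 0.99 were 58 of 5259 genes compared for Igfbp6, 34 of 2560 for Igf1 and 1 of 3216 for Igfbp3.

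Markers of cell types that many tissues share were set beside the kidney and lung group. The 5 endothelial markers summed to 307 and 372 FPKM in lung, 26.2 and 16.9 in kidney, 11.5 and 7.62 in small intestine, and 11.7 and 11.9 in liver. The mean sum in lung was 15.8 times that in kidney as deposited and 7.5 times after median-of-ratios scaling. Among the 5 markers Emcn was closest between them, at 12.8 and 12.5 FPKM in lung against 8.15 and 6.88 in kidney. The part of endothelial cells in the levels of Igfbp3, Igfbp5 and Igfbp7 was not tested. As deposited, the 6 stromal markers summed to 238 and 208 FPKM in lung and to at most 41.8 elsewhere, and were lowest in kidney at 13.1 and 8.39. The 4 mesothelial markers summed to 166 and 124 FPKM in lung, 353 and 364 in small intestine (349 and 360 of it from Krt19, which gut epithelium also makes) and at most 3.08 in kidney and liver. Stromal and mesothelial sums were therefore high in lung together with Igfbp6, and their part in the result was not tested. The kidney libraries were also compared with each other after median-of-ratios scaling. Igfbp3 was then at 39.6 and 30.7 and Igfbp5 at 39.1 and 29.9 in the kidney replicates. The podocyte sum was then 19.2 and 11.5 and the pericyte sum 11.3 and 8.59, while the endothelial sum was 25.7 and 23.3 and the proximal tubule sum 1326 and 1274. Whether these move together was not tested. No marker in the endothelial, stromal or mesothelial lists was at 0 in both libraries of a tissue.

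Of a list of 35 other genes of the pathway, 27 were tested. The receptor gene Igf1r, whose product receives IGF1, had 7.61 and 2.30 FPKM in kidney, 3.66 and 4.35 in lung, 0.426 and 0.594 in small intestine, and 0.130 and 0.138 in liver. Kidney replicates differed by a factor of 3.3, and both liver libraries were below all others. Liver was lower by 1.59 on the log2 scale (95% interval -2.34 to -0.85, adjusted p = 0.0026 by limma) and by 1.30 with median-of-ratios scaling. Kidney was called higher as deposited (1.38) and after that scaling (1.73), but the call rested on replicate 1 and was lost without it (0.69). The calls for lung (1.26) and small intestine (-1.05) were lost after median-of-ratios scaling (0.52 and -0.95). That for lung was also lost with quantile normalization (0.31), with equal sums without mitochondrial genes (0.95) and without lung replicate 2 (1.16, adjusted p = 0.055 by limma). That for small intestine was also lost without a filter, with quantile normalization, with limma-voom, and without kidney replicate 1 (-0.82) or any one library of liver (-1.05 and -1.04) or small intestine (-0.97 and -1.13). The closely related insulin receptor gene Insr was between 1.08 and 3.81 FPKM in every library and not called in any tissue, although median-of-ratios scaling called it higher in liver (1.10). The ratio of Igf1r to Insr FPKM, which one scaling factor per library does not move, was 2.19 and 2.14 in kidney, 1.29 and 1.22 in lung, 0.160 and 0.203 in small intestine, and 0.0341 and 0.0458 in liver. Of the 4 tissues liver thus had the most Igf1 FPKM and the least Igf1r FPKM.

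Among the growth hormone signalling genes, Jak2 and Socs2 did not follow the order of Ghr. Jak2, the kinase bound to the receptor, had 14.5 and 20.3 FPKM in small intestine, 11.04 and 11.04 in lung, 4.22 and 1.82 in kidney, and 1.63 and 1.56 in liver, so that the tissues with little Ghr had more Jak2. Its calls in lung (1.09) and kidney (-1.11) were lost without kidney replicate 2 (0.94 and -0.67) and after median-of-ratios scaling (0.11 and -0.84). Socs2, a feedback inhibitor that the receptor induces, had 15.1 and 12.4 FPKM in lung, 5.04 and 4.97 in small intestine, 0.450 and 0.594 in kidney, and 0.618 and 0.935 in liver. Its lung difference was 2.54 (SE 0.15, adjusted p = 4.2e-06 by limma), and 1.61 with median-of-ratios scaling. Both kidney and liver, the tissues with most Ghr, were called lower for Socs2 (-1.83 and -1.53), the liver call being lost with median-of-ratios scaling (-0.88). Of the 6 genes in this list, 5 were called higher in lung (40.7% of all genes), 4 lower in liver (32.7%), 3 lower in kidney (16.1%), and 2 higher and 1 lower in small intestine (13.7% and 11.3%). With the other scaling 3 were higher in lung (14.7% of all genes), 1 was higher and 1 lower in liver (12.3% and 13.9%), 2 were lower in kidney (12.1%), and small intestine kept its counts (13.0% and 11.7%). The related inhibitor genes Socs3 and Cish were also higher in lung (2.25 and 1.98), and after median-of-ratios scaling too (1.31 and 1.2). Stat5b was called higher in lung (1.10) as deposited, a call lost without kidney replicate 2 or without lung replicate 2 (0.94 in both cases), and lost after median-of-ratios scaling (0.10), which instead called it higher in liver (1.35). In small intestine, where Ghr was also lowest, Stat5b was called lower as deposited (-1.14) and after that scaling (-1.23), a call lost without kidney replicate 1 (-0.97) or without either small intestine library.

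**Figure D4:**
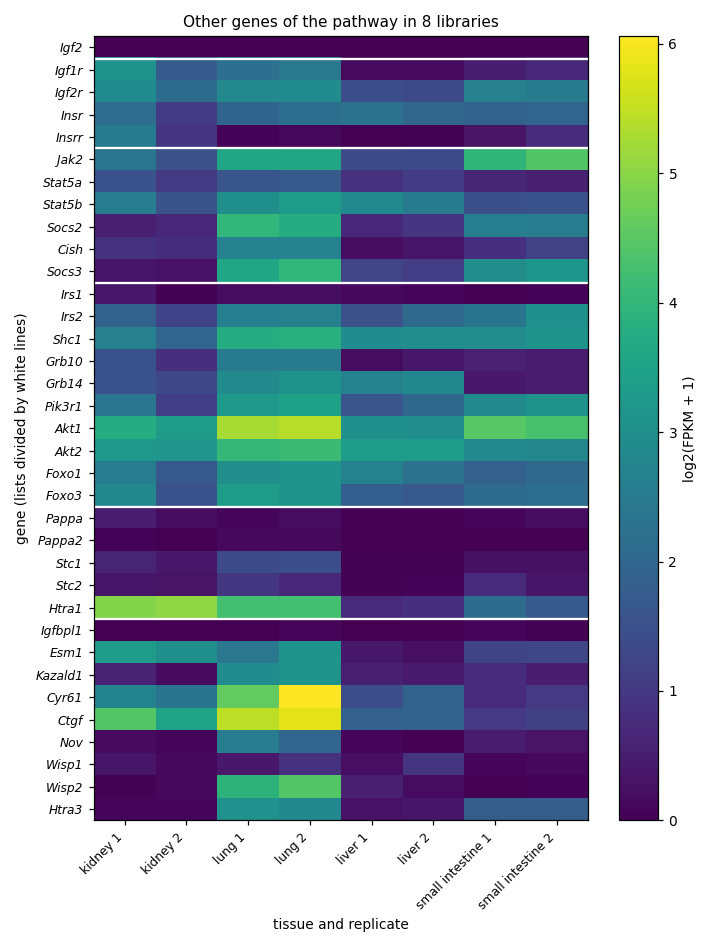
The colour scale plots log2(FPKM + 1) of the 35 other pathway genes (rows, in list order from the ligand Igf2 through receptors, growth hormone signalling, downstream signalling, proteases and related secreted proteins) in the 8 libraries (columns). Igf2 is dark throughout, Igf1r is dark in liver, and Socs2, Cyr61, Ctgf and Wisp2 are brightest in lung.

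Over the whole list 21 genes were called higher and 0 lower in lung, 4 higher and 5 lower in kidney, 2 higher and 7 lower in small intestine, and 1 higher and 14 lower in liver. The median log2 differences were 1.26, -0.44, -0.41 and -1.06, beside 0.82, -0.34, -0.01 and -0.72 for all genes tested. Over all genes 40.7% were called higher and 8.26% lower in lung, 8.65% and 16.1% in kidney, 13.7% and 11.3% in small intestine, and 6.56% and 32.7% in liver, so the lung and liver counts are not read as a trait of the list. With median-of-ratios scaling the lung count became 10 higher and 0 lower (14.7% and 16.0% of all genes) and the liver count 3 higher and 4 lower (12.3% and 13.9%). Kidney then had 4 higher and 4 lower (11.5% and 12.1%) and small intestine 2 higher and 6 lower (13.0% and 11.7%). As deposited, Igf1r and Ctgf lost their calls as higher in kidney without kidney replicate 1 (0.69 and 0.64). The counts of the 10 members in liver were the same with either scaling. Below the receptors, 6 of 9 genes tested were called higher in lung, beside 40.7% of all genes, and 1 after median-of-ratios scaling, beside 14.7%. The receptor adaptor gene Grb14 had its highest FPKM in lung (6.39 and 7.67), then liver (5.36 and 6.07). It was called higher in lung (1.46) as deposited but not after median-of-ratios scaling (0.46), and higher in liver with both (1.12 and 2.01), though not with equal sums without mitochondrial genes (0.99). It was lower in small intestine (-1.94). Of the proteases that cut binding proteins, Htra1 had 29.5 and 32.1 FPKM in kidney, 18.1 and 18.1 in lung, 3.41 and 2.21 in small intestine, and 0.682 and 0.774 in liver. That is the same order as Igfbp7 in kidney and lung, with liver lowest as for Igfbp3 and Igfbp5. Pappa and Pappa2, which also encode proteases of binding proteins, did not pass the filter and reached at most 0.398 and 0.0938 FPKM. Of the 7 tested genes for other secreted proteins with an IGFBP-like domain, all 7 were called higher in lung (40.7% of all genes) and 6 of them with median-of-ratios scaling (14.7%), Esm1 being the exception. Among these Wisp2 had the largest lung difference (4.02), followed by Cyr61 (3.63, from unequal libraries at 23.3 and 65.7 FPKM) and Ctgf (3.32), all of which encode secreted matrix-associated proteins.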

How the data were processed

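Bulk RNA-seq of 8 libraries (4 tissues, 2 mice each) was read from 1 table of FPKM values for 52195 genes, which the authors deposited. According to the study's methods, reads were mapped with STAR 2.5.3a to the Ensembl release 75 mouse genome. Those methods and the submitters' processing notes name DESeq2, whose FPKM function the authors applied with the library sizes. The read counter, its use of strand and its treatment of multiply mapped reads are not given in the sources used here. The deposited FPKM carry no depth of their own, so reads were recovered with exon lengths from GENCODE M21: 94.5% to 96.1% of values of 1 to 50 reads came out whole within 0.02, and 51847 symbols (99.3%) matched 1 gene. A value of 3 reads was taken as the floor, and intervals of counts cover counting error only. GRCm38 coordinates and exons are from GENCODE M21, upstream windows from RefSeq.

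Genes with at least 1 FPKM in 2 libraries (16328) were tested with limma 3.58.1 in R 4.3.3 on log2(FPKM + 1), which understates the changes of low genes, with empirical Bayes trend and one mean per tissue over all 8 libraries. The contrasts set one tissue against the average of the other 3, and neighbouring tissues in the order of each gene's mean with each other. P-values were Benjamini-Hochberg adjusted over all genes in each comparison. A call needed an adjusted p below 0.05 and a log2 difference above 1 in size. Single values were compared by exact permutation over libraries (scipy 1.17.1). The procedure was tested on simulated data. Alternatives were a pseudocount of 0.1, other filters, 3 other scalings, no trend, a replicate block, limma-voom on the recovered reads, and each library left out.

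All 10 members are named, with up to 3 called genes per pathway list by size of difference, and always Igf1r, Igf2, Jak2 and Socs2. Insr, Stat5b, Pappa, Pappa2, Esm1, Emcn and Polr2b were named after their values were seen, to complete a count or a ratio. The 2 genes most like each member are those with the highest Pearson r over the libraries. The members and lists were chosen with earlier results of these data known.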

Additional observations from a re-analysis of the deposited data

How the results depend on the processing

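Of 1190 alternative values for 70 comparisons of a member between tissues, 1120 kept their direction and their side of the threshold, 17 lost a call, 23 gained one without a change of sign and 30 changed sign. All 30 belong to differences that were not called as deposited, and 1 of them was called under its alternative (Igfbp3 in kidney against lung). The number of members whose highest tissue was called above the next went from 4 to 8 with median-of-ratios scaling. The totals of members called in a tissue, higher and lower together, and of neighbouring pairs called stayed within 1.5 times of those given, but by direction the lung count went from 5 higher and 2 lower to 3 and 5 with that scaling. Values that changed sign, on the log2 scale, were as follows. With a pseudocount of 0.1, Igfals in kidney was 0.48, Igfbp4 in lung 0.02 and Igfbp6 in small intestine 0.66. With limma-voom on recovered reads the same 3 were 0.66, 0.03 and 0.77. With median-of-ratios scaling Igfbp6 in small intestine was 0.03, Ghr in kidney against liver -0.19, Igfbp3 in kidney against lung 1.04 and Igfbp5 in lung against kidney -0.96. With quantile normalization Igfals in lung against small intestine was -0.04, Igfbp3 in kidney against lung 0.56, Igfbp5 in lung against kidney -0.48 and Igfbp6 in kidney against liver -0.07. With libraries set to the same sum without mitochondrial genes, Igfals in kidney was 0.18, Igfbp3 in kidney against lung 0.67, Igfbp5 in lung against kidney -0.59 and Igfbp7 in small intestine against liver 0.05. The cause was not tested. Leaving out 1 library at a time gave -0.07 to 0.06 for Igfbp4 in lung, -0.14 to 0.04 for Igfbp6 in small intestine, -0.44 to 0.40 for Igfbp3 in kidney against lung, -0.33 to 0.52 for Igfbp5 in lung against kidney, -0.06 to 0.46 for Igfbp6 in kidney against liver and -0.33 to 0.29 for Igfbp7 in small intestine against liver. Where that left a tissue with 1 library, the library was assumed to vary like the other tissues. With the replicate number as a block (the replicate block) 8, 7, 10 and 8 members were called in kidney, lung, liver and small intestine, as without it, and no call changed. The correlations of same-numbered deviations from the tissue means ran from -0.217 to 0.0528, so the numbers were not taken to pair the libraries. Depth limits Igfbp1 in lung and small intestine, Igfbp2 and Igfals in small intestine and Igfbp6 in liver, each with a library of 4 reads or fewer.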
